A study of Homo sapiens with 10 samples.

Results

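The BET inhibitor JQ1 was compared with its solvent DMSO after 4 h in K562 cells, an established line from chronic myeloid leukaemia that carries the BCR-ABL fusion kinase and keeps features of the erythroid lineage. The comparison holds 2 of the 10 libraries of the series, 1 a side, and 11797 of 59204 listed human genes. These are the genes with a mean total count of at least 20 over the 10 libraries, and the nearest genes outside that limit had a mean of 19.9. Both cultures had been grown for 12 h with 30 µM 4-thiouridine, with fresh medium every 3 h, and were washed before they went into medium that held 3 mM uridine. JQ1 (1 µM) or DMSO came with the uridine, so the control also carries the pulse, the wash and the chase. The remaining libraries are 1 taken at 0 h of the chase, JQ1 and DMSO pairs at 2 h and 8 h, and 3 with the CDK9 inhibitor AZ-5576. With 1 library a side (n = 1) no difference has a replicate check, and no p-value is given.

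BET proteins, such as BRD2 and BRD3, bind acetylated histones through their bromodomains and help RNA polymerase II to pass from pausing into elongation. JQ1 occupies the bromodomains and releases the proteins from chromatin. In blood cancers, genes that depend on dense BET binding, MYC among them, are known to fall, while HEXIM1 and several histone genes are known to rise. In SLAM-seq, 4-thiouridine built into RNA during the pulse is read as T-to-C changes. The authors call one set of reads nascent. It is taken here as the reads with such changes, called labelled, and read as RNA made up to the end of the pulse. For some genes labelled RNA at 4 h was above its 0 h level, as given below, so this reading may not hold for them. Unlabelled reads hold RNA made during the chase, RNA older than the pulse and reads in which no change was seen.

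The JQ1 library had 14177094 total and 3346476 labelled reads, and the DMSO library 12130418 and 2538060. RNA from fly cells had been added at 5% to the purified RNA, which gave 1824170 and 1368241 fly reads. Each count was divided by the fly total of its library, and levels are given as reads per 1000000 fly reads, called fly-scaled reads below. Such values are relative to RNA mass and not to cell number, and fewer cells of a kind cannot be told apart from less RNA per cell. Human reads per fly read were 7.77 in JQ1 and 8.87 in DMSO, or 87.7% of DMSO. The labelled part was at 98.9% of DMSO and the unlabelled part at 84.7%. Fly genes with a mean of at least 100 reads spread with an SD of 0.30 log2 units between both libraries, and 0.951% of these 2103 genes differed 2-fold or more. The defining K562 markers were present, such as the fetal globin HBG1 with 78230 and 63785 reads. Of 26 markers of other cell types 9 had no read in JQ1 and 10 none in DMSO, and the list made up 0.0704% of the reads in JQ1 and 0.0915% in DMSO, most of it from VIM, KRT8 and KRT18.

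The libraries fell into 2 sets in the reads of a few ribosomal protein pseudogenes, and both sides of the comparison lie in different sets. RPS24P6 had 10468 to 15016 reads in 6 libraries, JQ1 4 h among them, and 422 to 635 in the other 4, DMSO 4 h among them. RPL38P5 (45 against 260 reads) and RPL31P31 (279 against 82) split the same way. The labels do not name these sets. Of the 11797 genes 3 separated the sets by 2-fold or more. With no such margin, 178 genes had all 6 libraries above the other 4 and 11 had all 6 below. Among the genes counted below, 12 of 317 higher and 2 of 975 lower ones separated the sets, FGF18 among the named ones. The part of these sets in the results was not tested, and the 3 pseudogenes, whose reads cannot be told apart from those of their parent genes with certainty, are left out of the account of the response.

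In total RNA, more genes lay below DMSO than above. The median log2 ratio over all genes was −0.29, and 8933 genes (75.7%) lay below DMSO. A gene is counted here as lower or higher where the ratio reached 2-fold (1 log2 unit, with 0.5 added to each count). By that rule 975 genes were lower (8.26%) and 317 higher (2.69%). The exact 95% interval, which covers counting error only, excluded no change for 971 and 310 of them and lay wholly beyond 2-fold for 323 and 117. As a measure of scatter and time together, DMSO at 4 h against the geometric mean of DMSO at 2 h and 8 h gave 228 lower (1.93%) and 100 higher (0.848%) genes. For 67 of the 317 higher genes DMSO 4 h lay 2-fold or more below that mean. For 14 of the 975 lower genes it lay 2-fold or more above it. With DMSO 2 h and 8 h as the control, 745 of the 975 and 192 of the 317 passed 2-fold again. Among genes with a mean of at least 100 reads in the compared libraries, 471 were lower (5.61%) and 102 higher (1.21%) under JQ1, beside 24 (0.286%) and 21 (0.25%) in the DMSO comparison. That comparison averages 2 libraries on either side of 4 h, which can lower its scatter and cancel a steady trend. Between single libraries, 525 of 8203 genes (6.40%) differed 2-fold or more between JQ1 and DMSO at 4 h. DMSO 4 h so differed from DMSO 2 h in 118 (1.44%) and from DMSO 8 h in 257 (3.13%). These genes had a mean of at least 100 reads over the 10 libraries.

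The balance of the calls depends on the scale. TMM, which centres the libraries on their own genes, adds 0.28 to every log2 ratio of total RNA and gave 485 lower and 520 higher genes. The lower genes made up 75.5% of the calls per fly read and 48.3% with TMM. Every ratio or median of total RNA between −0.28 and 0 given below changes sign with TMM, and all values are per fly read unless TMM is named.

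**Figure D1:**
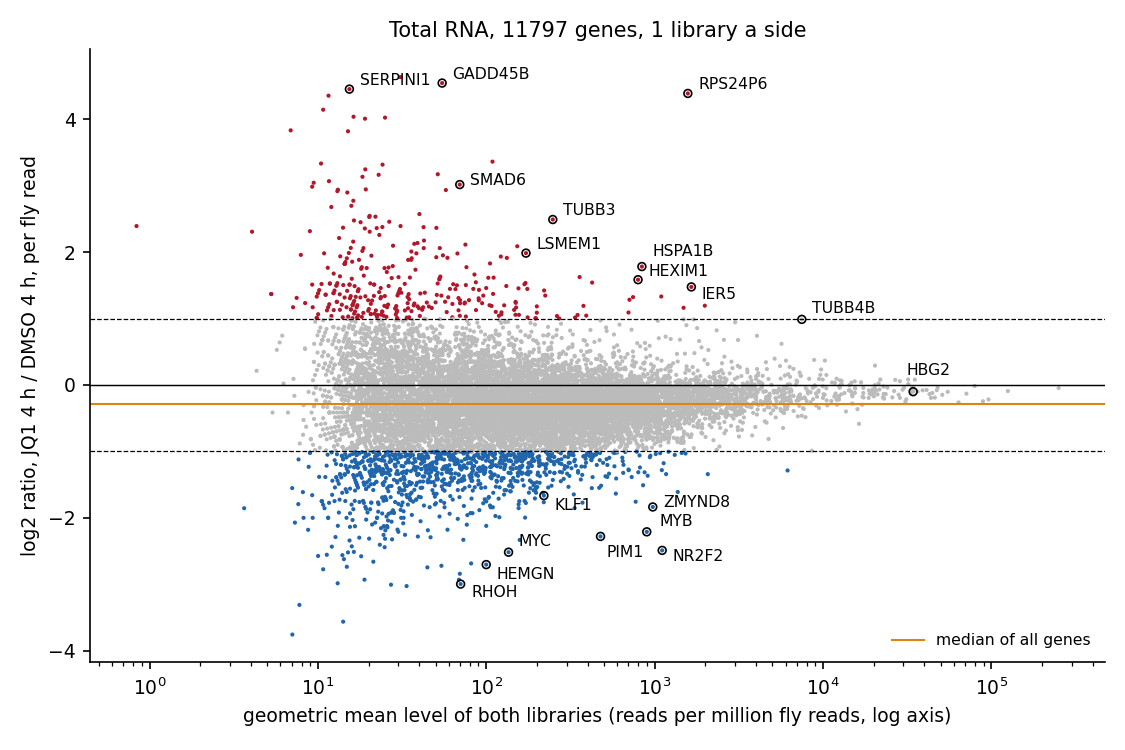
Total RNA under JQ1 against DMSO at 4 h for 11797 genes. The x axis is the geometric mean level of both libraries in fly-scaled reads (log axis) and the y axis the log2 ratio. Blue and red points are the 975 lower and 317 higher genes, the dashed lines mark 2-fold and the orange line the median of −0.29.

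Among genes with a mean of at least 100 reads in the compared libraries, those lowest against DMSO included several regulators of blood cells. RHOH, a GTPase-related signalling protein of blood cells, stood at 24.7 fly-scaled reads under JQ1 and 199 under DMSO, or 12.5% of DMSO (exact 95% interval 8.84% to 17.1%). NR2F2, an orphan nuclear receptor, stood at 468 against 2631, a log2 ratio of −2.49 (−2.60 to −2.38). HEMGN, a nuclear protein of erythroid cells, had 71 reads against 349 (−2.70, interval −3.10 to −2.34). For each of these 3 genes the JQ1 level was also below that at 0 h, while the DMSO level was above it.

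MYC, the growth regulator used as the standard readout of BET inhibition, had 103 reads under JQ1 and 444 under DMSO, or 17.5% of DMSO (13.9% to 21.6%). In fly-scaled reads MYC stood at 237 at 0 h, at 160, 324.5 and 710 in DMSO at 2, 4 and 8 h, and at 85.4, 56.5 and 223 in JQ1. The 3 JQ1 values lay below the DMSO value of the same time, and the lowest of all 7 was JQ1 at 4 h. MYC lies on chromosome 8 at 127735434 to 127741434 (GRCh38, plus strand).

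MYB, a transcription factor that keeps blood progenitors from differentiating, stood at 418 fly-scaled reads under JQ1 and 1935 under DMSO (log2 ratio −2.21, interval −2.33 to −2.09). In DMSO it was at 901, 1040, 1935 and 3039 at 0, 2, 4 and 8 h, and in JQ1 at 743, 418 and 768 at 2, 4 and 8 h. PIM1, a survival kinase and STAT5 target, had 395 against 1440 reads (−2.28, interval −2.45 to −2.12). It too went up over the chase in DMSO, from 405 at 0 h to 1671 fly-scaled reads at 8 h, and JQ1 at 4 h was at 217. The ratios of these genes at 4 h thus hold a lower level under JQ1 than at 0 h and a higher one under DMSO.

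The other genes among the 12 lowest by the naming rule were RNF217, a ubiquitin ligase (128 against 485 reads), NRROS, a regulator of reactive oxygen species (38 against 190), ZNF689 (59 against 224), the demethylase ALKBH4 (87 against 285) and the antisense RNA PPP1R26-AS1 (58 against 282). Their log2 ratios ran from −2.12 to −2.72. No source used here says whether the authors' counting used the strand, so PPP1R26-AS1 is uncertain.

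Apart from RPS24P6, TUBB3 and LSMEM1, the 12 genes highest against DMSO under the same minimum had only 15 to 49 reads in DMSO. They reached the mean of 100 through their JQ1 reads. GADD45B, a stress-induced growth arrest gene, had 482 reads under JQ1 and 15 under DMSO (log2 ratio 4.55, interval 3.85 to 5.44). It stood at 4.73 fly-scaled reads at 0 h, at 26.5 and 35.7 in DMSO at 2 h and 8 h, and at 236, 264 and 208 in JQ1. All 3 JQ1 libraries, that of 2 h included, lay above the other 4. SERPINI1, under the minimum of 100, which encodes the protease inhibitor neuroserpin and is known to respond to BET inhibition, had 131 against 4 reads (4.45, interval 3.23 to 6.52). At 2 h its log2 ratio was 0.63 and at 8 h 4.41. Its DMSO levels were 8.28, 2.92 and 6.24 fly-scaled reads at 2, 4 and 8 h, so here too DMSO 4 h was the lowest.

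ADARB1, an enzyme that edits adenosine in double-stranded RNA, showed a later onset. It had 637 reads under JQ1 and 46 under DMSO (log2 ratio 3.36, interval 2.94 to 3.84), with a ratio of 0.02 at 2 h and 4.87 at 8 h. Its DMSO levels stayed between 27.7 and 42.2 fly-scaled reads from 0 to 8 h, while JQ1 gave 43.0, 349 and 872 at 2, 4 and 8 h. TUBB3, a tubulin known from neurons, had 1075 against 143 reads (2.49, interval 2.24 to 2.76) and ratios of 1.78 and 2.97 at 2 h and 8 h. SMAD6, an inhibitor of BMP signalling, had 361 against 33 reads (3.02, interval 2.52 to 3.60), with ratios of −0.21 at 2 h and 1.96 at 8 h.

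The other highest genes were the proteoglycan gene SPOCK2 (282 against 23 reads), the growth factor gene FGF18 (290 against 28), NPIPB5 (178 against 22), the olfactory receptor gene OR2B6 (209 against 30), CLIP3 (176 against 25), LSMEM1 (625 against 118) and CCDC92 (285 against 49). Their log2 ratios ran from 1.99 to 3.17. NPIPB5 belongs to a family of near-identical copies and was at −0.65 at 8 h. FGF18 is one of the genes that separate the 2 sets of libraries.

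**Figure D2:**
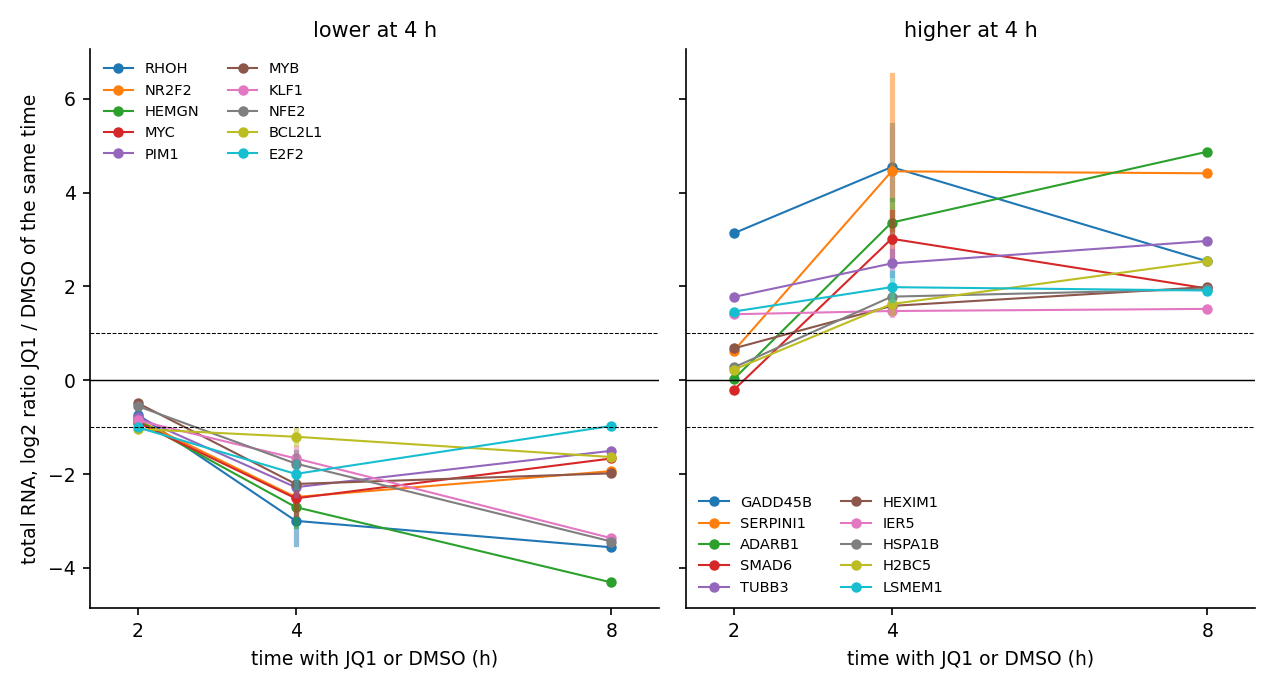
Total RNA log2 ratio of JQ1 to DMSO at 2, 4 and 8 h (x axis, hours) for 10 genes lower and 10 higher at 4 h, each ratio from 1 library a side. Pale bars at 4 h are exact 95% intervals for counting error, dashed lines mark 2-fold, and KLF1, NFE2 and HEMGN were lowest at 8 h while GADD45B was highest at 4 h.

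The pairs at 2 h and 8 h share no library with the 4 h pair. Of the 975 genes lower at 4 h, 876 lay below DMSO at 2 h (203 at 2-fold) and 919 at 8 h (521 at 2-fold). Over all genes, 82.4% lay below DMSO at 2 h and 72.3% at 8 h, and 5.1% and 14.9% were 2-fold lower. The shares 2-fold higher were 1.47% at 2 h and 3.42% at 8 h, and of the 317 higher genes 88 and 158 were. At both other times 829 of the 975 lay below DMSO, against 62.7% of all genes, and 111 were 2-fold lower, against 1.75%. Of the 317 genes higher at 4 h, 180 lay above DMSO at both other times, against 7.99% of all genes, and 50 were 2-fold higher at both, against 0.50%. Of the genes whose whole interval lay beyond 2-fold, 297 of 323 lower and 91 of 117 higher ones kept their sign at both other times. Across genes the ratios of total RNA at 4 h had a Pearson correlation of 0.40 with those at 2 h and 0.58 with those at 8 h (11797 genes, which are not independent and share the fly scale of each library).

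Genes reported elsewhere to go up with BET inhibitors were higher as a list. Of 10 measured members 6 were higher and 1 lower, beside 2.69% and 8.26% of all genes. The median log2 ratio was 1.31, beside −0.29 over all genes. The list was chosen with earlier results of these data known. SERPINI1, one of the 6, had 0 reads at 0 h and 10, 4 and 11 in DMSO at 2, 4 and 8 h. It passed the minimum of 20 through its JQ1 libraries, with 21, 131 and 242 reads. HEXIM1, which holds the elongation kinase P-TEFb inactive, stood at 1382 fly-scaled reads under JQ1 and 460 under DMSO (2521 and 630 reads), or 300.0% of DMSO (275% to 328%). At 0 h it was at 312, in DMSO at 372 and 567 at 2 h and 8 h, and in JQ1 at 596 and 2250. Each JQ1 value lay above the highest DMSO value. H2BC5, H2BC21 and H2AC6, which encode core histones, had log2 ratios of 1.63, 1.54 and 1.09, and ZCCHC24 was at 1.61. ZMYND8, a reader of histone acetylation that was placed in the list, went the other way with 942 against 2524 reads (−1.84, interval −1.95 to −1.73), and it was at −0.17 at 2 h and −2.87 at 8 h.

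The BET proteins and the elongation machinery stayed within 2-fold. Of 37 measured members 0 were lower and 0 higher, beside 8.26% and 2.69% of all genes (median −0.29, as over all genes). BRD2 was at 0.37 (interval 0.32 to 0.41) and BRD3 at −0.02 (−0.28 to 0.24). POLR2A, the largest subunit of RNA polymerase II, was the highest member with 3854 against 1548 reads (0.90, interval 0.82 to 0.99), and was at 0.42 and 1.20 at 2 h and 8 h. The histone methyltransferase genes NSD2 and NSD3 were at −0.93 and −0.89, and LEO1, of the PAF elongation complex, at −0.90.

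Histone genes of the clustered families were above DMSO. This group was chosen after its values were seen. All 15 measured genes named H1-1 to H1-6, H2AC, H2BC, H3C or H4C lay above DMSO and 8 were higher, beside 2.69% of all genes. Their log2 ratios ran from 0.18 to 2.45, with a median of 1.02. The interval of H4C3 (61 against 35 reads) held no change, from −0.24 to 1.03, and H4C3 was at −0.61 at 2 h and −0.09 at 8 h. H2BC5, H2BC21 and H2AC6 are also in the list of genes reported to go up, so both groups share genes. With TMM the median was 1.30. The median was 0.24 at 2 h and 2.12 at 8 h. H2BC18 (76 against 10 reads, log2 ratio 2.45) and H2AC11 (362 against 76, log2 ratio 1.83) were the highest. Many histone genes are near-identical, so the share of each copy is uncertain. The counts come from 3′ end libraries, and whether they stand for all mRNA of these genes was not tested.

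Promoter sequence was examined because these genes moved together. RefSeq promoters (GRCh38.p14, 250 bases before to 50 after the start) were matched by symbol for 8405 of the measured genes, 718 of the lower and 166 of the higher ones. Of 5 motifs searched, TATAAA was sought on the gene's strand, and AGATAA (the core GATA factor site), CACGTG (the E-box of MYC), CCACACCC (the CACC box of Krüppel-like factors) and CCGGAA on both strands. Matches of different motifs may overlap. The sequence TATAAA, the core of a TATA box, stood in 13.9% of the promoters of higher genes, 3.06% of those of lower genes, 3.49% of those of measured genes and 7.71% of all 27305 promoters in the table. In the window from 36 to 24 bases before the start, where a TATA box is known to act, the shares were 11.4%, 0.696%, 1.58% and 2.44%. Without histone genes, TATAAA stood in 10.8% of the promoters of higher genes and 3.36% of those of measured genes. CCGGAA, the core of ETS factor sites, stood in 17.5% of the promoters of higher genes, 30.4% of those of lower and 33.4% of those of measured genes. For AGATAA the shares of higher, lower and measured genes were 6.63%, 6.13% and 4.74%, for CACGTG 7.83%, 11.8% and 10.9%, and for CCACACCC 3.61%, 3.48% and 2.93%. A match is a string of letters in a window and not a shown binding site.

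Promoters of 3 higher genes that hold TATAAA are printed to show where it lies, with those of 2 lower genes that lack it. They were chosen for this and do not stand for their groups, since only 23 of the 166 promoters of higher genes hold it and lower genes are close to measured genes. Capitals mark TATAAA, and each sequence runs 5′ to 3′ on the strand of its gene. HEXIM1 (chr17:45148225-45148524, plus strand) has it 29 bases before the start, GADD45B (chr19:2475877-2476176, plus strand) 31 and H2BC5 (chr6:26157871-26158170, plus strand) 28. KLF1 (chr19:12887152-12887451, minus strand) and PIM1 (chr6:37169902-37170201, plus strand) hold none in the window.
HEXIM1: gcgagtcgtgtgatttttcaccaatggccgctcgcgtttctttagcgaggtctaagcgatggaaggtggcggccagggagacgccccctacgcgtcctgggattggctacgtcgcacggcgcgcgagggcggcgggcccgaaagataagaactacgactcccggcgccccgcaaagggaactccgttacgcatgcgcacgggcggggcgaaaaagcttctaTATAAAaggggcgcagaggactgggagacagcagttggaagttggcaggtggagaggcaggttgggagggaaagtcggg
GADD45B: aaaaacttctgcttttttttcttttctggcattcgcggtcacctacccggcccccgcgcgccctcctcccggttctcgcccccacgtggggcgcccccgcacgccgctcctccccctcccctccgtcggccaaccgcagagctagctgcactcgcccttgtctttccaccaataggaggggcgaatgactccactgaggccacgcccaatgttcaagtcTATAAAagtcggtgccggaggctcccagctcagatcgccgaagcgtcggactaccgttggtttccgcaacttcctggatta
H2BC5: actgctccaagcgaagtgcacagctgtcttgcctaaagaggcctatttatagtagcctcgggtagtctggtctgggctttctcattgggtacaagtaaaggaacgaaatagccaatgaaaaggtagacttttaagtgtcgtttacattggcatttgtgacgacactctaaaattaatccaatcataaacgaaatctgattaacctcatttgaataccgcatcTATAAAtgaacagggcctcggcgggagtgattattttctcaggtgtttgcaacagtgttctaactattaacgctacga
KLF1: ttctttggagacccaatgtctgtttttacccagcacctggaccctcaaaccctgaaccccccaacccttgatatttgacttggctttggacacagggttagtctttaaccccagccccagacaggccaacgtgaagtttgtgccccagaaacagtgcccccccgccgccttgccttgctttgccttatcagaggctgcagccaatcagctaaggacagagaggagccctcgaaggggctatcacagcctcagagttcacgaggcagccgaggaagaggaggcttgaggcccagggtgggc
PIM1: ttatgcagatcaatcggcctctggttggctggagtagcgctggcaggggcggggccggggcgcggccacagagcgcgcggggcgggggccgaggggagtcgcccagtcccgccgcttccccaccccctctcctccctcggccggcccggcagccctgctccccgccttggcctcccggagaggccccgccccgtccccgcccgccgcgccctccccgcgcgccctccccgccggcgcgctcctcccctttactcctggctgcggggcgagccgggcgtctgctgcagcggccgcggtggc
The GC content of these windows was 62% for HEXIM1, 61.7% for GADD45B and 41.3% for H2BC5, against 57% for KLF1 and 79.7% for PIM1. The median GC content was 64.8% over higher, 64.5% over lower and 65.3% over measured genes.

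Transcription factors of the erythroid and haematopoietic programme had the lowest median of the lists with 7 or more measured members. Of 33 measured members 10 were lower and 0 higher, with a median of −0.63, beside 8.26% lower and 2.69% higher over all genes. Of the 33, 28 lay below DMSO at 2, 4 and 8 h, as did 6496 of all 11797 genes. With TMM 6 were lower and the median was −0.35. KLF1, which activates adult globin and many erythroid genes, stood at 123 fly-scaled reads under JQ1 and 392 under DMSO (log2 ratio −1.67, interval −1.90 to −1.44). At 0 h KLF1 was at 556, in DMSO at 530 and 842 at 2 h and 8 h, and in JQ1 at 293 and 81.3. NFE2, a partner of small MAF proteins at globin enhancers, had 169 against 435 reads (−1.78, interval −2.04 to −1.52) and was at −3.44 at 8 h. For both genes the DMSO 4 h library was the lowest of the DMSO series, so the ratio at 4 h is smaller than against the DMSO libraries of 2 h and 8 h.

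E2F2 (155 against 465 reads), GFI1B (log2 ratio −1.60), TAL1 (−1.31), GATA2 (−1.27), HHEX (−1.22), STAT5A (−1.22) and CBFA2T3 (−1.14) were the other lower members beside MYB. E2F2 serves terminal erythroid division, GFI1B represses genes of other lineages, and TAL1 and GATA2 belong to the factor complex of blood stem cells. GATA1, the master regulator of red cell genes, was at −0.61 (interval −0.74 to −0.49), LYL1 at −0.77 and LMO2 at −0.63, short of 2-fold at 4 h. Those 3 were at −2.49, −2.34 and −2.68 at 8 h. Of 7 measured Krüppel-like factors, KLF1 was lower and the median was −0.53, with KLF6 at −0.99.

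Products of the erythroid programme had a share of lower genes near the 8.26% of all genes. Of 44 genes of haem synthesis, iron handling and red cell membranes 4 were lower and 0 higher (median −0.40), and 2 were lower with TMM. Among them were HEMGN, the iron transporter SLC11A2 (−1.26) and ERMAP (−1.03). ALAS2, the first enzyme of erythroid haem synthesis, was at −0.27 and the transferrin receptor TFRC at −0.30. Of 9 measured globins 1 was higher (median 0.07), beside 2.69% of all genes. The fetal globin HBG2 was at −0.10 (60535 against 48697 reads), the embryonic globins HBZ and HBE1 at −0.14 and 0.07, and the one higher member was HBB with 66 against 6 reads, which was at −1.01 at 8 h. Paired globin genes such as HBA1 and HBA2 are near-identical, and the split between them is uncertain.

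In the MYC and MAX network 3 of 12 measured members were lower and 0 higher (median −0.38), beside 8.26% and 2.69% of all genes. With TMM 1 was lower and 1 higher. Beside MYC they were MYCL (27 against 43 reads) and MGA, a MAX-binding repressor (167 against 262 reads, log2 ratio −1.06). The MGA value comes to 0.01 when the JQ1 libraries of 2 h and 8 h stand in for JQ1 4 h. MXD3, a MYC antagonist, was at 0.76 and MXI1 at −0.57. Genes of the nucleolus and of ribosome assembly, many of them MYC targets, had a median of −0.45, with 5 of 50 lower and 0 higher, a share near the 8.26% of all genes, and 2 lower with TMM. The lower ones were RRS1 (−1.77), BYSL (−1.32), PPAN (−1.03), WDR43 (−1.03, or −0.91 with DMSO 2 h and 8 h as the control) and NOP16 (−1.02). At 8 h 24 of the 50 were lower and the median was −0.99, and 45 of the 50 lay below DMSO at all 3 times, beside 14.9% of all genes lower at 8 h and 6496 of 11797 below DMSO at all 3 times. The 82 ribosomal protein genes had 0 lower and 0 higher members (median −0.08).

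The list of BCR-ABL and JAK-STAT signalling was close to all genes, of which 8.26% were lower and 2.69% higher. Of 32 measured members 3 were lower, the adaptor GAB1 (−1.27), the kinase PIK3CD (−1.25) and STAT5A, and 1 was higher, PIK3R1 (1.12), with a median of −0.29. With TMM 0 were lower and 1 higher. Among 14 STAT5 and cytokine targets 3 were lower and 0 higher (median −0.50), namely PIM1, BCL2L1 and SOCS2 (−1.06), but with TMM 1 was lower and 2 higher. The feedback inhibitor CISH was at −0.49 and SOCS3 at 0.92. In the BCL2 family 1 of 14 was lower and 1 higher (median −0.17). BCL2L1, which protects erythroid cells from apoptosis, stood at 299 against 688 fly-scaled reads (−1.20, interval −1.36 to −1.05). BCL2L11, which encodes the pro-apoptotic BIM, had 328 against 115 reads (1.09, interval 0.79 to 1.42), and was at 0.53 with DMSO 2 h and 8 h as the control. MCL1, another survival factor, was at 0.13 (interval 0.07 to 0.20).

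Immediate-early and feedback regulators split into both directions. Of 55 measured members 12 were higher and 3 lower, beside 2.69% and 8.26% of all genes, with a median of −0.11 that becomes 0.17 with TMM. IER5, an early growth response gene, stood at 2760 against 992 fly-scaled reads (log2 ratio 1.48, interval 1.39 to 1.56), with 2030 against 765 at 2 h and 4008 against 1396 at 8 h. JUND of the AP-1 factors had 5487 against 1799 reads (1.19) and SERTAD1 1325 against 341 (1.54). The mRNA-destabilising protein gene ZFP36 was at 1.37, TOB1 at 1.63, IER5L at 2.17 and FOS at 2.37 from 58 against 8 reads. The lower members were the AP-1 gene FOSL1 (−1.69), TNFAIP3, an inhibitor of NF-κB (−1.40), and CITED2 (−1.17).

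The same DMSO library served for AZ-5576 at 4 h, so values against it are set side by side only. HEXIM1 was at 1.58 with JQ1 and −2.32 with AZ-5576, IER5 at 1.48 and −4.88, GADD45B at 4.55 and −1.36, and MCL1 at 0.13 and −2.60. MYC was at −2.52 and −4.85, MYB at −2.21 and −1.97, PIM1 at −2.28 and −2.51, and KLF1 at −1.67 and −1.19. The first 4 genes were above DMSO with JQ1 and below it with AZ-5576, and the last 4 were below it with both.

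The lists of cell cycle genes had medians from −0.43 to −0.29, beside −0.29 over all genes. In each the share of lower genes lay below the 8.26% of all genes, of which 2.69% were higher. Among 25 genes of G1/S control E2F2 was lower and CDKN1A, the CDK inhibitor p21, higher with 183 against 50 reads (log2 ratio 1.45, interval 1.00 to 1.94), with a median of −0.37. Of 47 DNA replication genes 2 were lower, GINS3 (−1.62) and POLD3 (−1.08), with a median of −0.29. Of 44 mitosis genes 3 were lower and 0 higher (median −0.43). PLK1, a mitotic kinase, stood at 3950 against 9638 fly-scaled reads (−1.29, interval −1.33 to −1.25), and was at −0.37 at 2 h and −0.31 at 8 h. SPC25 and PRC1, of the kinetochore and the spindle midzone, were at −1.23 and −1.02. With DMSO 2 h and 8 h as the control PLK1 was at −0.85 and PRC1 at −0.91, short of 2-fold. Of 12 tubulins TUBB3 was higher (median −0.17), and TUBB4B was at 0.99 (19255 against 7283 reads).

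Of 21 heat shock chaperones 2 were higher and 0 lower (median 0.06), beside 2.69% and 8.26% of all genes. HSPA1B, an inducible HSP70, had 2846 against 620 reads (1.78, interval 1.66 to 1.91), its near-identical copy HSPA1A was at 0.94, and CRYAB was at 1.02 from 36 against 13 reads. Of 24 genes of the integrated stress response 2 were lower, STC2 (−2.26) and TRIB3 (−1.46). That share is near the 8.26% of all genes, and the list median was −0.26. No member was lower or higher among 25 genes of sterol synthesis (median −0.04), 20 of glycolysis (−0.13), 31 of the proteasome (−0.23), 76 of nuclear oxidative phosphorylation (−0.15) and 11 mitochondrially encoded mRNAs (−0.14). ACTB was at 0.03, GAPDH at −0.04 and EEF1A1 at −0.02.

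Among numbered zinc finger genes, most of which encode DNA-binding repressors with short-lived mRNAs, 70 of 301 were lower and 5 higher. Over all genes 8.26% were lower and 2.69% higher, and the list median was −0.58. With TMM 42 were lower and 8 higher. Many of these genes had few reads, such as ZNF792 with 12 against 71. Among 71 genes of mRNA decay 2 were lower and 2 higher (median −0.40), with TNRC6C, a partner of the microRNA effector complex, at 1.09. Of 37 splicing regulators SRSF8 was lower (−1.10, median −0.28), and of 26 noncoding host RNAs and lncRNAs MIR17HG, the host of a microRNA cluster that MYC activates, was lower (−1.65, median −0.17). Of 11 measured markers of other cell types COL1A1 was higher with 58 against 10 reads (median −0.26). Of 4 BET-sensitive haematopoietic markers CD82 was lower with 13 against 29 reads.

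**Figure D3:**
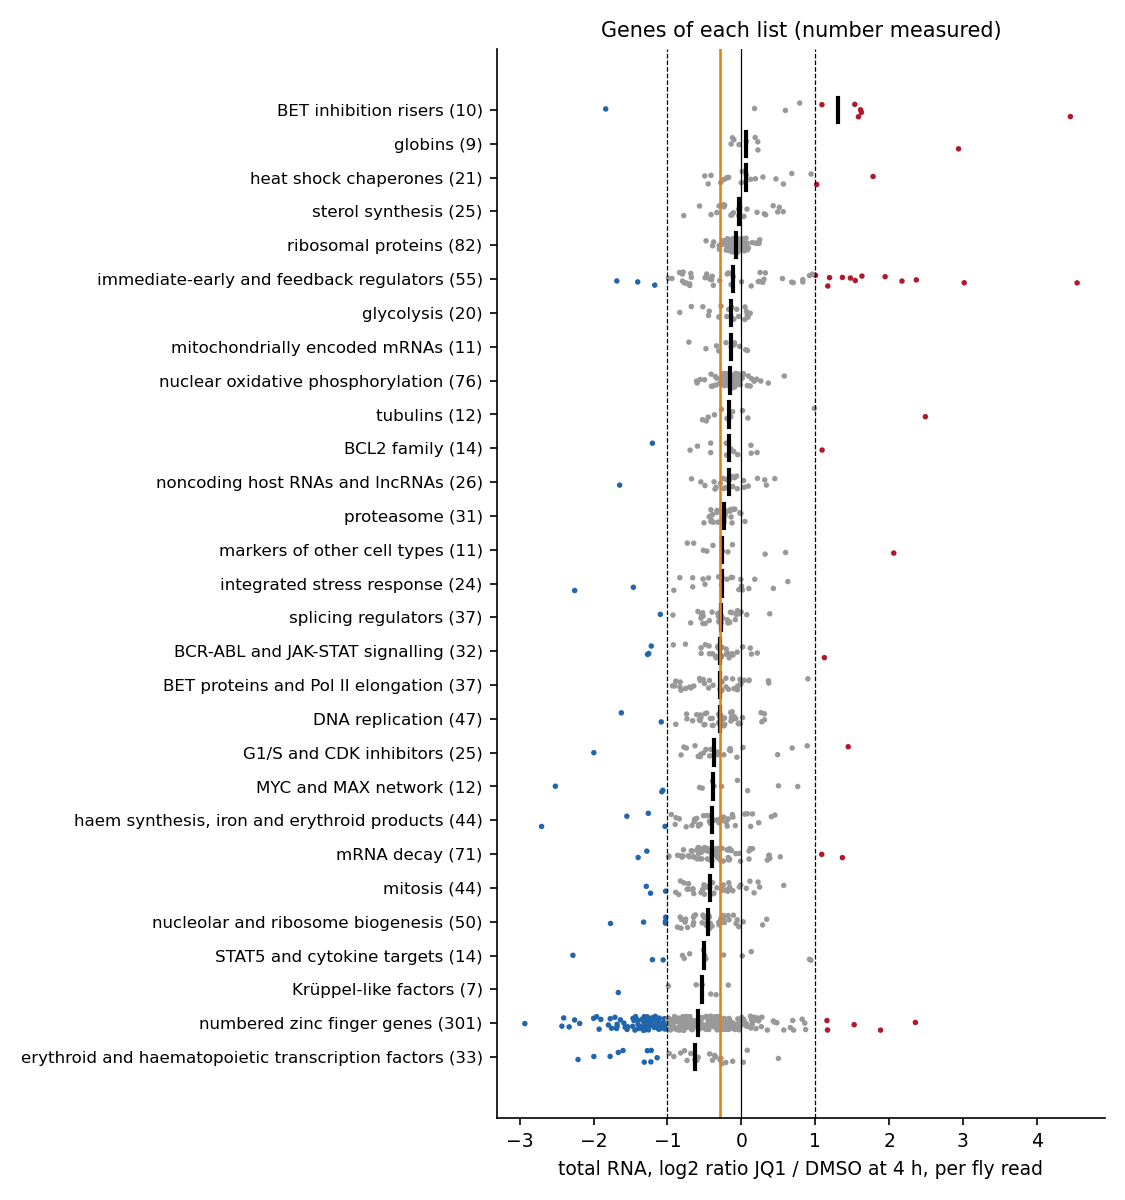
Total RNA log2 ratio of JQ1 to DMSO at 4 h (x axis) for the measured genes of each list with 7 or more members, with the number measured in brackets. Each point is a gene, black bars are list medians, the orange line is the median of all genes and dashed lines mark 2-fold. Erythroid factors have the lowest median (−0.63) and the BET list the highest (1.31).

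The difference lay mainly in unlabelled RNA. Over 11066 genes the median log2 ratio of unlabelled RNA was −0.40, with 1660 genes lower (15.0%) and 294 higher (2.66%). Over 8817 genes that of labelled RNA was −0.02, with 153 lower (1.74%) and 209 higher (2.37%). DMSO at 4 h against DMSO at 2 h and 8 h gave 97 lower and 296 higher genes in labelled RNA (1.1% and 3.36%), so the higher count under JQ1 lies below that between DMSO libraries and the lower count above it. Label also declines with time in that comparison. Across genes the labelled ratio at 4 h had a Pearson correlation of 0.07 with that at 2 h and 0.16 with that at 8 h (8817 genes). For unlabelled RNA the values were 0.45 and 0.60 (11066 genes). Labelled RNA stood at a median of 65.3% of its 0 h level under JQ1 and 66.2% under DMSO. With TMM on the unlabelled counts 545 genes were lower and 673 higher, so that lower genes made up 44.7% of the calls in place of 85.0%.

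In 8698 genes measured in both pools, 554 were lower in total RNA. Of these 467 were 2-fold lower in unlabelled RNA alone, 81 in both and 6 in labelled RNA alone. Of 69 genes higher in total RNA 36 were so in unlabelled RNA alone, 31 in both and 2 in labelled RNA alone. The total is the sum of both pools, so these counts describe where a difference sat. In 3070 of the genes (35.3%) labelled RNA was above and unlabelled RNA below DMSO.

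Erythroid factors show this division, with 0 of 30 members lower or higher in labelled RNA and 12 of 32 lower in unlabelled RNA. Over all genes 1.74% were lower and 2.37% higher in labelled RNA and 15.0% lower in unlabelled RNA, so the labelled count is near that of all genes. KLF1 had 61 labelled reads under JQ1 and 51 under DMSO (log2 ratio −0.16, interval −0.72 to 0.41), and 164 against 485 unlabelled reads (−1.98, interval −2.24 to −1.72). NFE2 was at −0.10 in labelled and −2.42 in unlabelled RNA, and E2F2 at −0.08 and −2.41. BCL2L1 had 91.5 and 91.4 labelled fly-scaled reads (log2 ratio 0.00, interval −0.34 to 0.35) and was at −1.53 in unlabelled RNA. MYC was at −0.62 in labelled RNA (39 against 45 reads, interval −1.28 to 0.03) and at −3.05 in unlabelled RNA.

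Some genes were lower in both pools or in labelled RNA alone. NR2F2 had 327 labelled reads under JQ1 and 675 under DMSO (−1.46, interval −1.66 to −1.27), and 23.1% of its 0 h labelled RNA was left under JQ1 against 63.6% under DMSO. PIM1 was at −1.18 in labelled RNA (89 against 152 reads, interval −1.58 to −0.80), PUM3, an RNA-binding protein of the nucleolus, at −1.22 and RNF217 at −2.65 from 17 against 82 reads. The labelled ratio of RNF217 was −0.21 at 2 h and 0.98 at 8 h. ZSCAN9, a zinc finger gene, was at −1.29 in labelled RNA, but at 0.26 when DMSO 2 h and 8 h served as the control. AEN, a p53-induced nuclease (−0.97), and MYB (−0.89) were among the 6 lowest by the naming rule without reaching 2-fold.

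The genes named as highest in labelled RNA also lay above DMSO in total RNA. IER5 had 886 labelled reads against 213 (log2 ratio 1.64, interval 1.42 to 1.86), HSPA1B 441 against 108 (1.61) and HEXIM1 422 against 130 (1.28, interval 1.00 to 1.58). PPP1R10, a regulator of protein phosphatase 1 in the nucleus, was at 1.14, but at −0.56 when the JQ1 libraries of 2 h and 8 h stand in. TUBB3 was at 2.51 in labelled and 2.48 in unlabelled RNA. In percent of its own 0 h level, labelled RNA was at 304% for TUBB3, 156% for IER5 and 102% for HEXIM1 under JQ1, against 53.4%, 50.1% and 42.1% under DMSO. Over all 8817 genes, labelled RNA was above its 0 h level in 9.14% under JQ1 and 10.2% under DMSO. Among the 74 of them higher in total RNA it was so for 35 (47.3%) under JQ1 and 8 (10.8%) under DMSO. Among the 559 lower in total RNA the shares were 1.79% and 10.7%. Total RNA includes the labelled reads, so these groups were not chosen independently of them. The reason was not tested. ADARB1 and H2BC5 were higher mainly in unlabelled RNA, at 3.86 and 1.91, against 1.53 and 0.68 in labelled RNA.

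**Figure D4:**
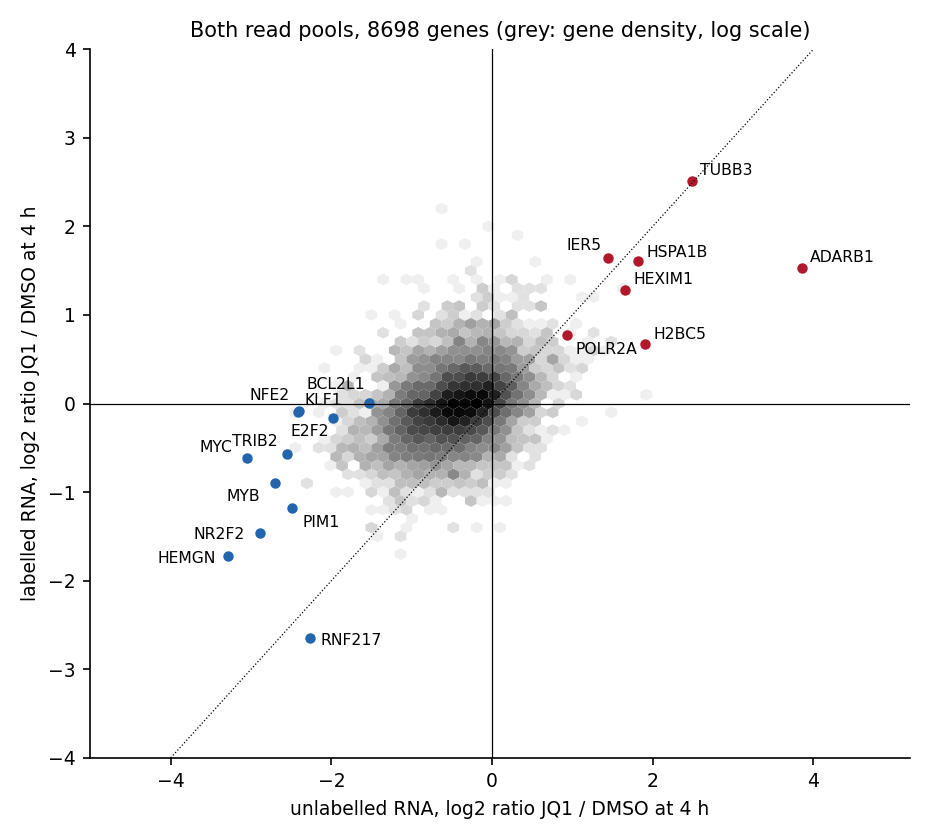
Log2 ratio of JQ1 to DMSO at 4 h in unlabelled RNA (x axis) and labelled RNA (y axis) for 8698 genes, with gene density in grey and named genes as points. KLF1, NFE2, E2F2 and BCL2L1 lie near 0 in labelled RNA and below −1 in unlabelled RNA, while TUBB3 lies on the dotted line of equal ratios.

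The labelled share of a gene, which needs no fly scale, was higher under JQ1 for most genes. Over 7897 genes with at least 100 total reads in both libraries the median share was 29.02% under JQ1 and 23.2% under DMSO. The median difference was 4.84 percentage points, and 6551 genes (83.0%) had a higher share under JQ1. The share was 10 points or more higher for 1745 genes (22.1%) and 10 points or more lower for 85 (1.08%). The exact intervals of both shares lay apart for 2765 genes with a higher and 92 with a lower share.

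The largest rises of the share, among genes with at least 200 reads, belonged to AHSA2P (58.8% against 24.6%), TMEM209 (67.0% against 33.3%), SETDB1, a histone methyltransferase (49.8% against 17.8%), GALNT5 (53.4% against 22.5%), the pseudokinase TRIB2 (51.7% against 21.2%) and TRIB3 (51.5% against 21.8%). SETDB1, TRIB2, TRIB3 and GALNT5 were also lower in total RNA, with log2 ratios from −1.85 to −1.19. The largest falls outside ribosomal protein pseudogenes were in the histone genes H3C10 (30.4% against 48.8%), H2BC15 (13.3% against 28.4%) and H2BC5 (16.2% against 31.2%) and in the lipase gene PNPLA2 (28.7% against 42.5%).

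Genes whose labelled RNA was lost fastest in DMSO differed most in total RNA. The 8817 genes were put into 5 equal groups by the labelled RNA left at 8 h in DMSO in percent of 0 h, from libraries outside the 4 h pair. The groups had medians of 10.4%, 22.0%, 34.3%, 49.0% and 73.6% left. In that order the median log2 ratio of total RNA was −0.46, −0.38, −0.31, −0.27 and −0.16, and 13.6%, 8.05%, 4.65%, 3.46% and 1.93% of the genes were lower. Unlabelled RNA ran from −0.58 to −0.21, and labelled RNA stayed between −0.03 and −0.01 in all 5 groups. Across genes the Spearman correlation of the total ratio with the label left was 0.23. The mean count of the groups moved with it, from a median of 249 to 585 reads.

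**Figure D5:**
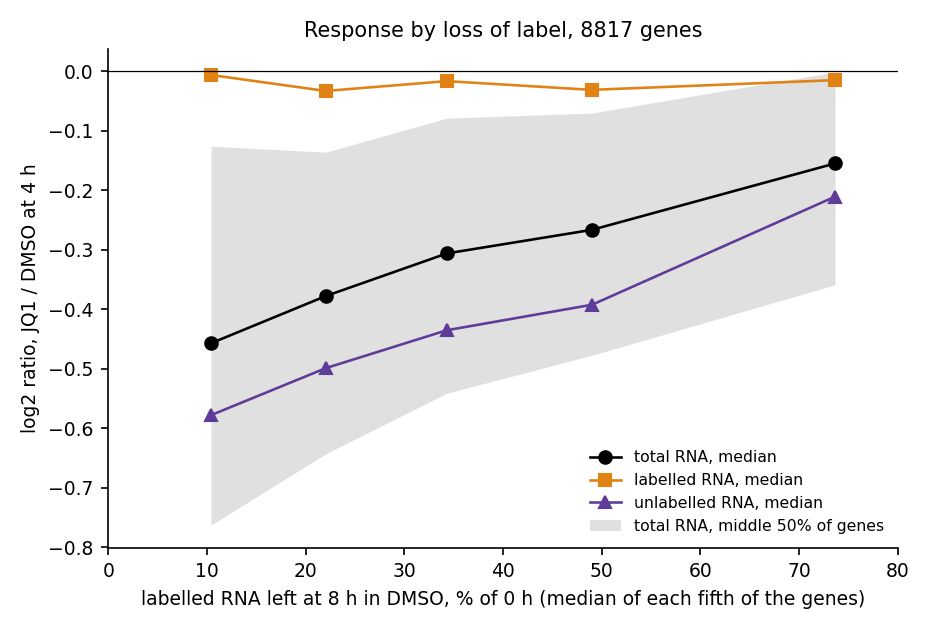
Median log2 ratio of JQ1 to DMSO at 4 h (y axis) in 5 equal groups of 8817 genes by the labelled RNA left at 8 h in DMSO (x axis, percent of 0 h, at the median of each group). Total and unlabelled RNA come nearer to 0 from the first group to the fifth while labelled RNA stays near 0, and the grey band holds the middle 50% of genes for total RNA.

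By expression level, taken from the 8 other libraries, 14.7% of the genes in the lowest of 5 equal groups and 1.69% in the highest were lower, and 8.81% and 0.424% were higher. The median ratio stayed between −0.34 and −0.20 over these groups, so the share of calls differed more between these groups than the median did. Of 9823 protein-coding genes 812 were lower and 198 higher (8.27% and 2.02%). Of 800 long noncoding RNAs 94 were lower and 62 higher (11.8% and 7.75%), and of 968 pseudogenes 36 and 38 (3.72% and 3.93%). By gene length in GENCODE v29, the shortest of 5 equal groups had a median of −0.13 and the other 4 had medians between −0.36 and −0.28.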

How the data were processed

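K562 RNA was measured by SLAM-seq with 3′ end libraries, per the labels' protocols. The authors deposited raw read counts per gene for all human reads, for reads they call nascent, taken here as reads with T-to-C changes (labelled), and for fly spike-in reads. The submitters' processing notes name bcl2fastq 2.17.1.14, Trim Galore 0.6.5, bedtools and the builds hg38 and dm6; the aligner, the annotation and the rule for a labelled read are not given in the sources used here.

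Unlabelled counts were total minus labelled counts. Ratios are log2 of (count + 0.5) per fly read, JQ1 over DMSO, for genes with a mean of at least 20 counts over the 10 libraries (in each pool, the same minimum). Genes at 2-fold or more were counted, with no test, since each side has 1 library. Exact Clopper-Pearson 95% intervals cover counting error only, because they rest on the counts of 1 library a side and hold no spread between libraries. Reads without molecular identifiers are not independent molecules, so the intervals may also be too narrow. The calculation was tested on simulated data. Python 3.11.15, numpy 2.4.6, pandas 2.3.3, scipy 1.17.1, matplotlib 3.10.9 and, for TMM factors only, edgeR 4.0.16 in R 4.3.3 were used.

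Named genes were the 12 with the lowest and the 12 with the highest total ratio among those with a mean of at least 100 reads, ranked by the interval bound nearest to no change, 6 each way in labelled and in unlabelled RNA, 6 each way in labelled share among those with at least 200 reads, a panel of known BET, MYC and erythroid genes, and up to 4 examples per gene list with a mean of at least 50 reads. The members and lists were chosen with earlier results of these data known. Gene classes and lengths come from GENCODE v29 and promoters from RefSeq (GRCh38.p14). Alternatives were other scales, filters and pseudocounts, a call rule on the interval, and the 2 h and 8 h libraries in place of either side. A few named genes are not reported here.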

Additional observations from a re-analysis of the deposited data

Results flagged for a closer look

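RPL31P31 and XRN1 passed 2-fold at 4 h with a sign opposite to that at both other times. RPL31P31, a ribosomal protein pseudogene that separates the 2 sets of libraries, had a log2 ratio of 1.35 at 4 h, −0.42 at 2 h and −0.03 at 8 h. XRN1, the cytoplasmic 5′ exonuclease, had 58 reads under JQ1 and 106 under DMSO at 4 h (−1.28), and was at 0.65 at 2 h and 0.04 at 8 h. Each ratio has 1 library a side, and the difference between times was not tested.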

How the results depend on the processing

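No paired analysis was possible because the 4 h comparison has 1 library a side and the labels give no replicate numbers; the pairs at 2 h and 8 h are other times and were not used as replicates. The cause of each change below was not tested unless fewer genes or a stricter rule explain it by construction. With TMM, total RNA had 485 lower and 520 higher genes (median −0.0034) and unlabelled RNA 545 and 673 (median 0.064). Scaled by human reads, total RNA had 614 lower genes (median −0.10), labelled RNA 84 lower and 337 higher (0.17) and unlabelled RNA 1026 lower (−0.21). Without a filter on low counts the lower and higher genes were 4464 and 4553 in total, 2366 and 3137 in labelled and 5249 and 4390 in unlabelled RNA. With a mean of at least 100 reads they were 450 and 75, 6 and 7, and 842 and 77. With the whole interval beyond 2-fold they were 323 and 117, 12 and 10, and 621 and 129. A pseudocount of 5 left 105 higher genes in labelled RNA. With DMSO 2 h and 8 h as the control, the total median was −0.39, labelled RNA had 90 lower and 349 higher genes (0.10), and the median share difference was 3.48 points. With JQ1 2 h and 8 h as the treated side, labelled RNA had 522 lower and 90 higher genes (−0.29) and unlabelled RNA 1101 lower. With at least 500 reads, the share was 10 points or more higher for 561 genes and lower for 6. The labelled counts thus change with the choice of either side. Ratios that changed sign were those of MGA (0.013 in total RNA), PPP1R10 (−0.56 in labelled RNA) and XRN1 (0.12 in unlabelled RNA) with the other JQ1 libraries, ZSCAN9 (0.26 in labelled RNA) with the other DMSO libraries, and RPS24P6 (−0.43) and RPL31P31 (−0.72) with DMSO 2 h alone, an alternative chosen after seeing the data and run on total RNA only. That control gave 1053 lower and 398 higher genes, 531 and 191 of them shared with DMSO 4 h. Of 77 named genes past 2-fold in total RNA, 77 kept their sign and 60 the 2-fold with TMM, 77 and 71 with the other DMSO libraries, and 76 and 53 with the other JQ1 libraries. Single libraries and low counts limit what can be seen.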

Other observations

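Some lists were further from DMSO at 8 h than at 4 h. Of the 44 genes of haem synthesis, iron handling and red cell membranes 18 were 2-fold lower at 8 h, with a median log2 ratio of −0.86, against 4 and −0.40 at 4 h. Of the 33 erythroid and haematopoietic transcription factors 17 were lower at 8 h, with a median of −1.04. Of the 10 listed genes that BET inhibitors are known to raise, 9 were higher at 8 h, with a median of 2.05, against 0.19 at 2 h. Mitosis genes went the other way, with a median of −0.43 at 4 h and −0.01 at 8 h. Whether the ratios differ between times was not tested, and 14.9% of all genes were lower and 3.42% higher at 8 h.

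Of 13 genes of the annotated class snRNA past the filter, 3 were higher at 4 h and 0 lower (median 0.70), and of 12 of the class misc_RNA 3 were higher and 1 lower (median 0.15), beside 2.69% higher and 8.26% lower over all genes.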
